A study of Rattus norvegicus with 120 samples.

Results

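The MHC class II genes of the rat were followed in kidney RNA. The 8 members, of 14217 genes with a probe set of their own, were RT1-Da, RT1-Db1, RT1-Ba, RT1-Bb, RT1-DMa, RT1-DMb, Cd74 and Ciita. They were chosen by name. A probe set, which is a group of short probes on the array that report together, was taken only where the annotation paired it with 1 gene. Each gene was read from its probe set with the highest mean log2 level over all 120 arrays, and all 8 members passed the filter on dim genes.

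The study, whose title names early detection of kidney injury by calcineurin inhibitors, treated male Sprague-Dawley rats, 5 to 7 weeks old at the start, by injection into the peritoneum once a day. The vehicle was olive oil. The drugs were cyclosporin A (CsA) at 2.5 or 25 mg/kg, tacrolimus (FK506) at 0.6 or 6 mg/kg and rapamycin (Rapa) at 1 or 10 mg/kg, and the kidney was collected 24 hours after dose 1, 7, 14 or 28. CsA and FK506 inhibit calcineurin, and Rapa, which binds the same cell protein as FK506, inhibits the kinase mTOR. Each of the 28 groups of treatment and day held 3 to 6 rats, with 1 Affymetrix Rat 230 2.0 array per rat, and different rats were killed on each day. The vehicle group at day 28 held 5 rats, CsA 25 mg/kg 4, FK506 6 mg/kg 5 and Rapa 10 mg/kg 6. Sprague-Dawley rats are an outbred stock, so that rats of a group are not genetically identical.

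MHC class II molecules are pairs of an alpha and a beta chain that carry peptides to the cell surface, where CD4+ T cells read them. In kidney they are best known on dendritic cells and macrophages between the tubules, and interferon gamma can bring them out on tubule cells. In the rat, RT1-Da and RT1-Db1 encode the alpha and beta chain of the RT1-D molecule, and RT1-Ba and RT1-Bb those of RT1-B. RT1-DMa and RT1-DMb encode the DM heterodimer that exchanges peptides in the endosome, Cd74 encodes the invariant chain that escorts new class II molecules, and Ciita encodes the transactivator that switches the family on.

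Class II promoters are read by a complex on a run of short elements, among them the X box, bound by RFX, and the Y box, bound by NF-Y, with which Ciita then associates. The promoters shown are those of the 5 members in which the Y box motif was found. Promoters of 6 members were in the RefSeq table (build GRCr8, 250 bases before to 50 after the start). RT1-DMb and Ciita were the other members. Capitals mark 2 searched motifs, GCAAC as the core of the X1 box and TGATTGG as the Y box, looked for on both strands; they do not overlap each other. Each window of 70 bases is printed in the gene's direction.
RT1-Da, chr20:4515319-4515388, plus strand: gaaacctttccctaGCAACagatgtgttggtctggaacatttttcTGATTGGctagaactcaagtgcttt
RT1-Db1, chr20:4560220-4560289, minus strand: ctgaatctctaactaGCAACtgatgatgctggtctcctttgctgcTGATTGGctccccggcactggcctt
RT1-Ba, chr20:4576967-4577036, plus strand: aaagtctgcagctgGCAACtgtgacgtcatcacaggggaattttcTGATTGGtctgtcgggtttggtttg
RT1-Bb, chr20:4604157-4604226, minus strand: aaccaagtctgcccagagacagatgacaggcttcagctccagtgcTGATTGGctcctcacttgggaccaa
RT1-DMa, chr20:4712377-4712446, minus strand: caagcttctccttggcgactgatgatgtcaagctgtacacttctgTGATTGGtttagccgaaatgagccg

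TGATTGG was found in 5 of the 6 promoters, the exception being Cd74, and lay 45 to 82 bases before the start. Of 33469 rat promoters of the same length, 7.06% held it. GCAAC was found in 4 of the 6 and in 35.1% of all promoters. RT1-Da, RT1-Db1 and RT1-Ba held both motifs in this order, with 26, 25 and 26 bases between them. The same order with 15 to 30 bases between was found in 45 promoters, or 0.134%. A match is a description of letters and does not show that a factor binds there.

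Levels are log2(intensity + 16) after quantile normalization, and a difference of 1 is a doubling. The deposited intensities had trimmed means of 232.8 to 250.0 per array. Defining genes of the kidney's proximal tubule were bright (Kap mean 13.98, Miox 13.89, Slc34a1 13.69). Of the immune markers, the pan-leukocyte gene Ptprc (7.40) and the macrophage gene Cd68 (7.21) lay above the dim limit of 5.75. Of the marker genes with a probe set, 14 of 19 for macrophages and monocytes, 8 of 9 for all leukocytes, 5 of 8 for dendritic cells, 4 of 10 for B cells and 5 of 17 for T and NK cells passed it. The B-cell gene Ms4a1 (5.23), the T-cell gene Cd3e (5.42) and the dendritic-cell gene Flt3 (5.32) did not, and the B-cell gene Blnk (8.33), the T-cell gene Lck (6.90) and the dendritic-cell genes Clec10a (7.44) and Irf8 (7.20) did. One array, CsA 25 mg/kg at day 28 replicate 3, held all 5273 zeros of the table and a mean correlation of 0.882 with its group, against 0.945 or more for every other array, and 4 arrays had the liver gene Alb above 12. Spiked hybridization controls were lower after 28 doses of FK506 6 mg/kg (mean 8.86) and Rapa 1 mg/kg (9.38) than in the other 26 groups (10.16 to 10.68). In whole kidney, more cells of a type and more RNA per cell cannot be told apart.

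The means of the class II genes over all rats were above the dim limit. Averaged over all rats, Cd74 read 12.11, RT1-Da 11.09, RT1-Ba 9.64, RT1-Db1 9.30, RT1-DMb 9.28, RT1-Bb 8.45, RT1-DMa 7.91 and Ciita 6.60, values that depend on each probe set and so give no order between genes. FK506 6 mg/kg at day 28 had the highest mean of the 28 groups for RT1-Da (11.87), RT1-Db1 (9.96), RT1-Ba (10.27), RT1-DMb (9.74) and Cd74 (12.54). Rapa 1 mg/kg at day 14 had the lowest for RT1-Da (10.62), RT1-Db1 (8.86) and RT1-DMb (8.62), and the second lowest for RT1-DMa (7.70), Cd74 (11.86) and Ciita (6.41).

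Group means spanned 1.25 for RT1-Da, 1.10 for RT1-Db1, 1.13 for RT1-DMb, 0.79 for Cd74, 0.63 for RT1-DMa, 0.49 for Ciita, 1.32 for RT1-Ba and 2.89 for RT1-Bb. Neighbours in the order of the 28 means did not differ beyond their spread: of 27 neighbouring pairs per gene, none was further apart than the larger of the pair's SDs, except 1 pair for RT1-DMb. That pair was Rapa 1 mg/kg at day 14 (8.62 ± 0.29, SD, n = 4) and the next lowest group, FK506 0.6 mg/kg at day 1 (9.05). With 28 means inside such spans, gaps between neighbours are small beforehand, and the SD measures single rats, so this check cannot decide the order. No order of neighbouring groups is claimed, at the top of the order included.

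**Figure D1:**
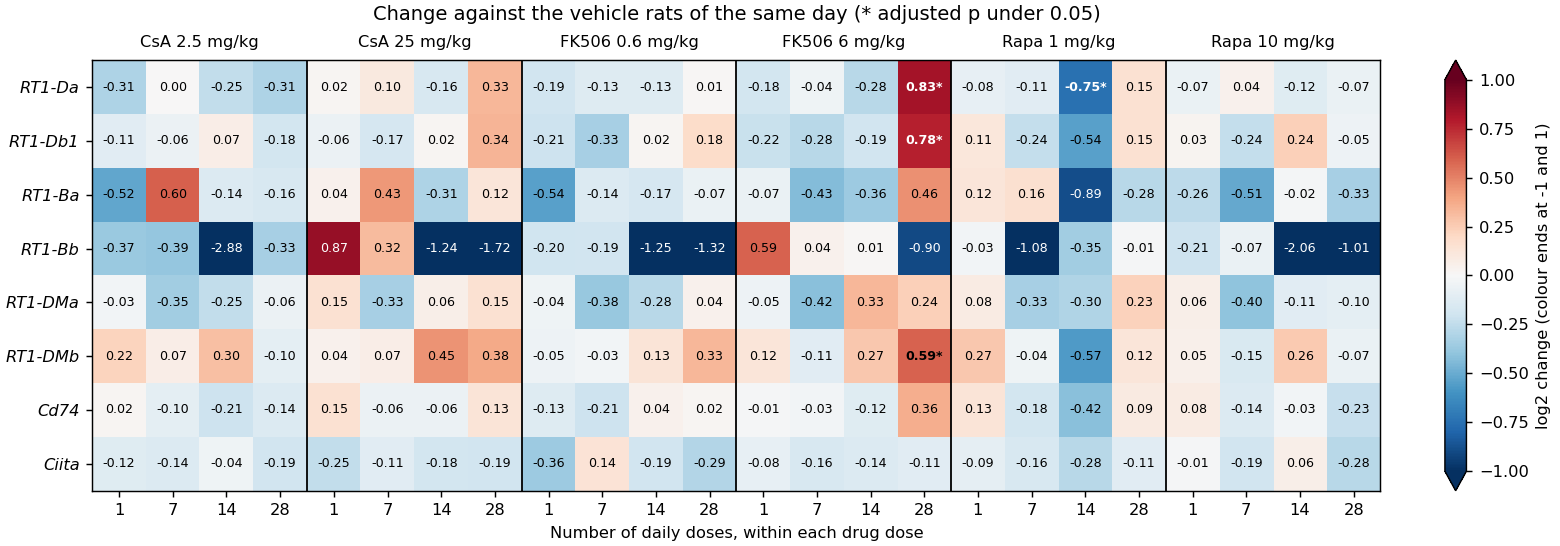
Log2 change of each class II gene (rows) against the vehicle rats of the same day, by drug dose and number of daily doses (columns); red is higher, blue lower, and an asterisk marks an adjusted p under 0.05 in limma. The 3 higher calls stand in the FK506 6 mg/kg column at 28 doses (0.83, 0.78 and 0.59) and the lower call in the Rapa 1 mg/kg column at 14 doses (-0.75); the deep blue cells of RT1-Bb carry no call.

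After 28 doses of FK506 6 mg/kg, the RT1-D pair and RT1-DMb rose against vehicle. RT1-Da, the alpha chain, read 12.77, 11.55, 11.17, 12.08 and 11.77 in the FK506 rats and 11.01, 10.95, 10.85, 10.77 and 11.60 in the vehicle rats. The highest vehicle rat lay inside the FK506 range, and 3 of the 5 FK506 rats lay above it. RT1-Da rose by 0.83 (SE 0.20, 1.78-fold; limma, adjusted p = 0.00115). RT1-Db1, the beta chain, read 10.63, 9.88, 9.43, 9.94 and 9.95 with FK506 and 9.09, 9.12, 9.19, 8.99 and 9.55 with vehicle. Of the 5 FK506 rats, 1 lay below the highest vehicle rat. RT1-Db1 rose by 0.78 (SE 0.18, adjusted p = 0.00114). That is the reading of its main probe set. RT1-Db2, another class II gene of the lists, had no probe set of its own. Whether the main RT1-Db1 probe set also reads RT1-Db2 was not tested. The second RT1-Db1 probe set had 0 calls in the 24 comparisons with vehicle (changes of -1.22 to 1.80, median SE 0.82).

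RT1-DMb, a chain of the peptide exchanger, rose by 0.59 (SE 0.18, adjusted p = 0.0141), with 10.26, 9.83, 9.10, 9.67 and 9.86 in FK506 rats and 9.01, 9.00, 9.44, 8.79 and 9.54 in vehicle rats. So 3 of 8 members were called, all higher, where 16% of the 10663 genes tested were called in either direction and 8.73% were called higher. Cd74, the invariant chain, read 12.54 ± 0.43 (SD, n = 5) against 12.18 ± 0.38 (n = 5), a change of 0.36 (SE 0.17) that did not pass (adjusted p = 0.127). RT1-DMa changed by 0.24 (SE 0.17), RT1-Ba by 0.46 (SE 0.34) and the transactivator Ciita by -0.11 (SE 0.17), none of them called. The median change of the 8 members was 0.41, against 0.01 over all genes.

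The calls for RT1-Da and RT1-Db1 held when any of these 10 rats was left out. The call for RT1-DMb was lost without FK506 replicate 1 (0.46, adjusted p = 0.0890), without vehicle replicate 4 (0.49, adjusted p = 0.0639) and with the hybridization control level as a covariate in the fit (0.51, adjusted p = 0.145). With that covariate RT1-Da (0.86, adjusted p = 0.0122) and RT1-Db1 (0.79, adjusted p = 0.0143) kept their calls, while the share of all genes called fell from 16% to 7.04% (1708 to 751 genes). Cd74 gained a call without FK506 replicate 3 (0.52, adjusted p = 0.0291) or without vehicle replicate 5 (0.52, adjusted p = 0.0242). Replicate 1 was the highest FK506 rat for all 8 members and replicate 3 the lowest. The hybridization controls of the 5 FK506 arrays read 8.90, 10.20, 9.05, 7.16 and 8.99.

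**Figure D2:**
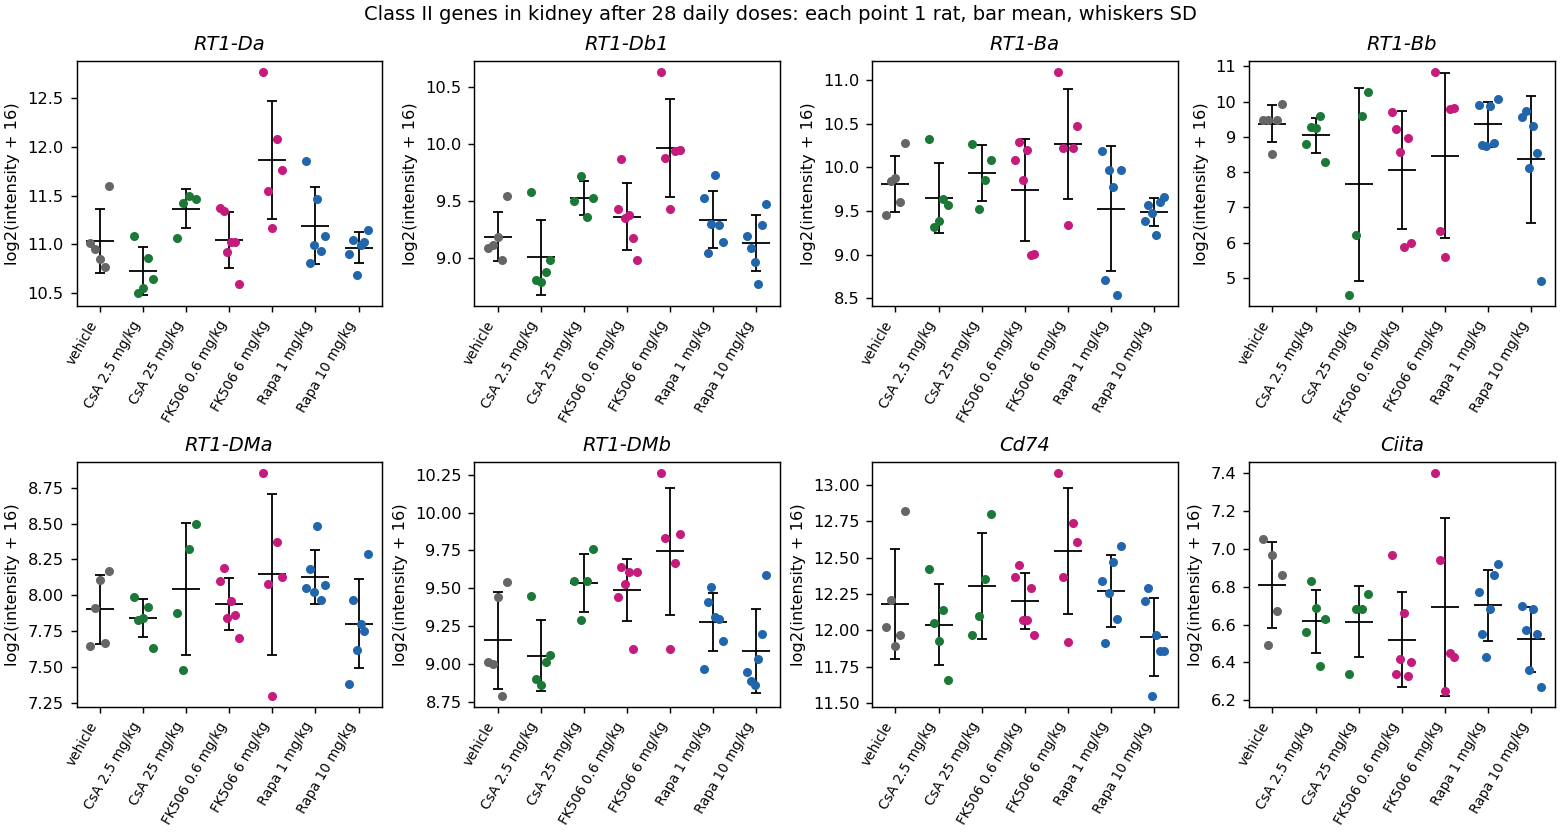
Levels of the 8 genes after 28 daily doses in the 7 treatments; each point is 1 rat, the bar is the group mean and the whiskers are 1 SD, on a log2 scale that differs between panels. The FK506 6 mg/kg rats spread from 11.17 to 12.77 for RT1-Da against 10.69 to 11.15 for Rapa 10 mg/kg, and RT1-Bb falls into a high and a low set of rats in several groups.

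Genes that work with class II, from lists chosen by function, moved in the same rats. Of 9 interferon gamma targets tested, 8 rose and none fell (median 0.68), among them the chemokine Cxcl10 (1.12, SE 0.26), the peptide transporter Tap1 (0.80, SE 0.27), the GTPase Gbp2 (0.76, SE 0.25) and the transcription factor Irf1 (0.75, SE 0.15). Of 8 proteases and reductases that prepare class II peptides, 4 rose: Ctss, which degrades the invariant chain (0.76, SE 0.17), Ctsd (0.69, SE 0.12), the thiol reductase Ifi30 (0.45, SE 0.09) and Ctsl (0.43, SE 0.07). Of 14 regulators of class II, 4 rose, namely Irf1, Irf8 (0.60, SE 0.16), the interferon gamma receptor chain Ifngr2 (0.60, SE 0.10) and the kinase Jak1 (0.28, SE 0.05). Of 17 genes of class I presentation 7 rose (median 0.39), with Tap1, the immunoproteasome subunit Psmb8 (0.65, SE 0.20), the class I gene RT1-S3 (0.61, SE 0.18) and Psmb9 (0.59, SE 0.18) the largest. None of 14 type I interferon targets was called (median 0.22). Some genes stand in more than 1 list, as Irf1 and Tap1 do here and Irf8 here and below, so the counts do not add up.

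Markers of immune cells and of injury moved with the members. Of 14 macrophage and monocyte genes 7 rose (median 0.67), led by Fcer1g (0.90, SE 0.23), Cd14 (0.81, SE 0.17), C1qc (0.76, SE 0.22) and C1qa (0.75, SE 0.23). The mean level of that list ran from 8.29 to 9.05 over the FK506 rats and from 7.87 to 8.35 over the vehicle rats. Of 8 pan-leukocyte genes 3 rose (Cd53 0.58, Ptprc 0.51 and Laptm5 0.48), and the list ran from 7.64 to 8.47 against 7.31 to 7.74. Of 5 dendritic-cell genes tested, Irf8 rose, of 4 B-cell genes, Blnk rose (0.88, SE 0.30), and none of 5 T and NK genes was called. Of 10 kidney injury genes 8 rose (median 1.54), among them Havcr1, the injury marker KIM-1 of the proximal tubule (3.65, SE 0.49). Recounted with the hybridization covariate, a count added after the values were seen, the genes that rose were 7 of 9 interferon gamma targets, 3 of 8 proteases and reductases, 4 of 14 regulators and 6 of 17 class I genes. For the cell markers they were 2 of 14 macrophage genes, 1 of 8 leukocyte genes, 1 of 5 dendritic-cell genes and 0 of 4 B-cell genes, and for injury 5 of 10. The part of these cells in the rise of the class II genes was not tested.

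Against Rapa 10 mg/kg on the same day, FK506 6 mg/kg had higher RT1-Da, RT1-Db1, RT1-DMb and Cd74; the doses differ, and the comparison is between these doses only. RT1-Da ran from 10.69 to 11.15 with a median of 11.01 in the 6 Rapa rats, so that every FK506 rat, from 11.17 up, lay above every Rapa rat. The difference was 0.90 (SE 0.19, adjusted p = 0.000318). RT1-Db1 differed by 0.83 (SE 0.17, adjusted p = 0.000395), RT1-DMb by 0.66 (SE 0.17, adjusted p = 0.00491) and Cd74 by 0.59 (SE 0.16, adjusted p = 0.00702). RT1-Db1, RT1-DMb and Cd74 overlapped between the groups. Calls stood at 4 of 8 members, where 11% of all genes were called and 6.84% were called higher, and 2.81% of genes were higher with no overlap between the groups.

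In the same comparison RT1-Ba differed by 0.78 (SE 0.32, adjusted p = 0.107), RT1-DMa by 0.34 (SE 0.17, adjusted p = 0.190) and Ciita by 0.17 (SE 0.16, adjusted p = 0.589), and all 8 members had a positive difference, with a median of 0.62. The Cd74 call was lost without FK506 replicate 1 (0.45, adjusted p = 0.0675) and the RT1-DMb call with the hybridization covariate (0.58, adjusted p = 0.105). Under that covariate RT1-Da (0.93, adjusted p = 0.00639), RT1-Db1 (0.84, adjusted p = 0.00895) and Cd74 (0.62, adjusted p = 0.048) kept their calls, while the share of all genes called fell from 11% to 3.92%. Without FK506 replicate 3, RT1-Ba (1.02, adjusted p = 0.0421) and RT1-DMa (0.55, adjusted p = 0.0218) were called as well. Of 14 macrophage genes 11 were higher with FK506 (median 0.86), of 8 leukocyte genes 7, and of 9 interferon gamma targets 8 (median 0.73); with the hybridization covariate these counts were 4, 4 and 6. Against vehicle, Rapa 10 mg/kg itself gave no call for a member at any day (limma, 0 of 8 each time, with 1 unadjusted p under 0.05, at day 7), where 2.82%, 7.3%, 10.5% and 15.7% of all genes were called at days 1, 7, 14 and 28.

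For the RT1-D pair, the rise with FK506 was seen at day 28 and not on the earlier days. At 6 mg/kg, RT1-Db1 differed from vehicle by -0.22 after 1 dose, -0.28 after 7, -0.19 after 14 and 0.78 after 28, and RT1-Da by -0.18, -0.04, -0.28 and 0.83. No member was called at days 1, 7 and 14, where 0.0281%, 3.2% and 2.68% of genes were called; RT1-DMa at day 7 (-0.42, adjusted p = 0.262) was the 1 of these 24 tests with an unadjusted p under 0.05. The effect at day 28 exceeded that at day 7 by 1.06 for RT1-Db1 (SE 0.27, adjusted p = 0.0141), a test of the difference itself, and this call held when any single rat was left out. It was the only member of 8 called, in a contrast where 4.8% of genes were called and 2.77% were called higher. On a second probe set of RT1-Bb, which split the rats as described below, FK506 rats read 4.45 to 5.62 at day 7. At day 28 they read 4.32 to 11.07, and vehicle rats read 4.50 to 10.33 and 5.23 to 9.87 on these days. The part of that split in the RT1-Db1 contrast was not tested. RT1-Da differed between the days by 0.87 (SE 0.29, adjusted p = 0.0626) and was called without FK506 replicate 2 (0.95, adjusted p = 0.0399) or 3 (1.05, adjusted p = 0.0294) of day 28, vehicle replicate 5 of day 28 (1.01, adjusted p = 0.0304) or vehicle replicate 4 of day 7 (1.04, adjusted p = 0.0353). RT1-DMa differed by 0.66 (SE 0.26, adjusted p = 0.129) and was called without FK506 replicate 3 of day 28 (0.87, adjusted p = 0.0374).

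**Figure D3:**
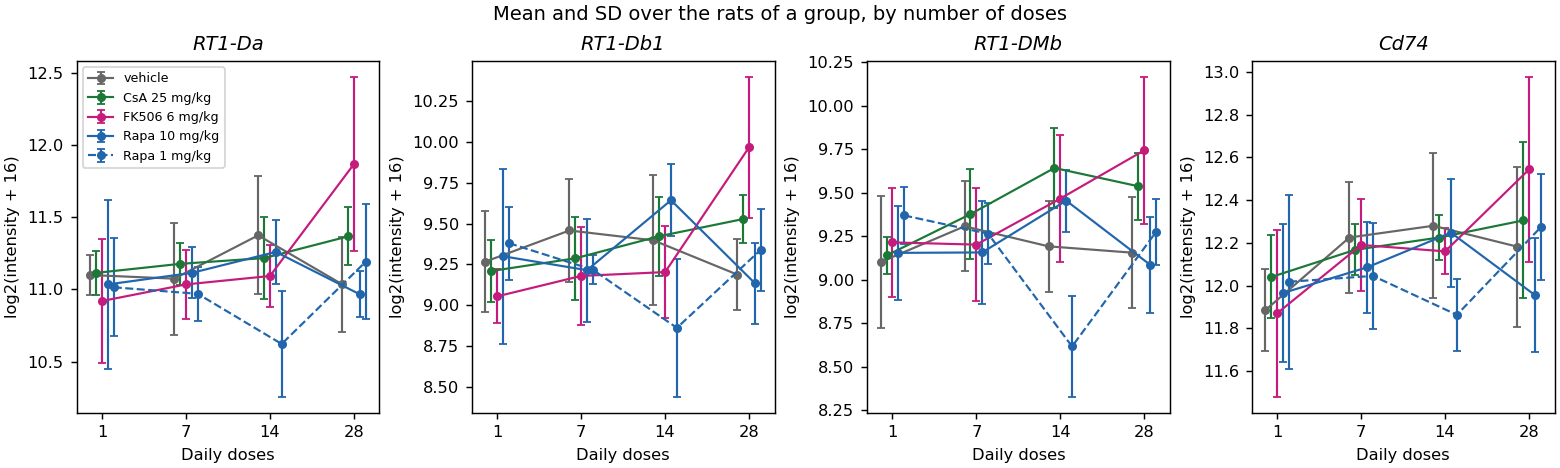
Mean level and SD over the rats of a group (log2 scale) against the number of daily doses, for 4 class II genes in vehicle rats and 4 drug doses. The FK506 6 mg/kg line is higher at 28 than at 14 doses (RT1-Da 11.87 and 11.10), and the dashed Rapa 1 mg/kg line dips at 14 doses (RT1-DMb 8.62). Different rats stand at each number of doses, and 28 doses were not tested against 14.

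At the lower dose of FK506 no class II gene was called. At 0.6 mg/kg and day 28, RT1-Da read 11.04 ± 0.29 (SD, n = 6) against 11.04 ± 0.33 (n = 5), a change of 0.01. The changes of the 8 members on that day ran from -1.32 (RT1-Bb) to 0.33 (RT1-DMb), with a median of 0.01. No member was called at 0.6 mg/kg on any of the 4 days (limma, 0 tests with an unadjusted p under 0.05), where 0%, 1.93%, 0.882% and 4.33% of genes were called. The 6 mg/kg rats exceeded the 0.6 mg/kg rats at day 28 by 0.83 for RT1-Da (SE 0.19, adjusted p = 0.00926), 1 call of 8 members where 1.62% of genes were called and 0.61% were called higher. All 8 members had a positive difference (median 0.38). That call was lost without FK506 6 mg/kg replicate 1 (0.60, adjusted p = 0.0929), with the hybridization covariate (0.85, adjusted p = 0.0699) and when only the arrays of day 28 were fitted (adjusted p = 0.0838). RT1-Db1 differed by 0.60 (SE 0.17, adjusted p = 0.0533) and was called without FK506 replicate 2 (0.62, adjusted p = 0.0491) or 3 (0.73, adjusted p = 0.0343).

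CsA, the other calcineurin inhibitor, gave no call for a class II gene against vehicle. Over both doses and 4 days, 0 of 64 member tests passed in limma and 3 had an unadjusted p under 0.05, where 0%, 0%, 0.0656% and 0% of genes were called at 2.5 mg/kg on days 1, 7, 14 and 28, and 0.675%, 3.97%, 7.89% and 21.1% at 25 mg/kg. At 25 mg/kg and day 28, RT1-Da read 11.07, 11.43, 11.50 and 11.47, inside the range of the vehicle rats, and differed by 0.33 (SE 0.21, 95% interval -0.08 to 0.74). RT1-Db1 differed by 0.34 (SE 0.19, -0.04 to 0.72), RT1-DMb by 0.38 (SE 0.19, 0.01 to 0.76; adjusted p = 0.146) and Cd74 by 0.13 (SE 0.18, -0.22 to 0.48). The upper bounds of RT1-Da and RT1-Db1 lie just under the changes estimated for FK506 (0.83 and 0.78), and those of RT1-DMb and Cd74 above them (0.59 and 0.36), so that a smaller rise with CsA was not resolved from none.

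Immune markers rose in the same CsA rats. Of 14 macrophage genes 12 rose (median 0.89), with Fcgr3a (2.00, SE 0.31), Fcer1g (1.40, SE 0.24), Adgre1 (1.18, SE 0.31) and C1qb (1.07, SE 0.25) the largest, and of 8 leukocyte genes 6 rose (median 0.75). Without the array with zeros, a choice made after the values were seen, these counts were 12 of 14 (median 0.86) and 5 of 8 (median 0.73), and Fcgr3a differed by 2.03 (SE 0.33). Of 9 interferon gamma targets 3 rose, namely Cxcl10 (0.83, SE 0.27), Icam1 (0.81, SE 0.15) and Irf1 (0.43, SE 0.16), and the GTPase Igtp was called lower (-0.82, SE 0.27). Of these 4 calls, that of Icam1 (0.76, SE 0.16, adjusted p = 0.000375) was left without that array; Igtp then differed by 0.14 (SE 0.16, adjusted p = 0.621). Among the 14 regulators 6 were called higher and Rfxap, a subunit of the X-box complex, lower (-0.66, SE 0.22), against 4 and 0 without that array, where Rfxap differed by 0.11 (SE 0.12, adjusted p = 0.599). Rfx5, another subunit, was called with it (0.33, SE 0.09) and without it (0.29, SE 0.10, adjusted p = 0.0370). The mean of the macrophage list ran from 8.61 to 9.62 in CsA rats against 7.87 to 8.35 in vehicle rats, with no overlap. Each class II member overlapped between these groups, as did all but 14.9% of the genes tested. The list is a mean of 14 genes and each member is 1 gene, so the overlaps are not measured alike. Without the array with zeros RT1-Da differed from vehicle by 0.29 and RT1-Db1 by 0.40, and no member was called.

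Set directly against FK506 6 mg/kg at day 28, CsA 25 mg/kg had lower values for all 8 members (median -0.29) but no call (limma, 0 of 8, 2 unadjusted p under 0.05), where 5.67% of genes were called. RT1-Da differed by -0.50 (SE 0.21, adjusted p = 0.162) and RT1-Db1 by -0.44 (SE 0.19, adjusted p = 0.202). Without FK506 replicate 3, RT1-Da was called lower (-0.67, adjusted p = 0.0350). In that comparison the macrophage receptor Fcgr3a was higher with CsA (1.36, SE 0.31; 1.39, SE 0.33, without the array with zeros). Igtp (-1.15, SE 0.27) and Rfxap (-0.89, SE 0.22) were called lower with CsA, and neither was called without that array (-0.19, adjusted p = 0.682, and -0.11, adjusted p = 0.787).

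Between the CsA doses at day 28, RT1-Da was higher at 25 mg/kg by 0.64 (SE 0.21, adjusted p = 0.0196; 11.37 ± 0.20, n = 4, against 10.73 ± 0.25, n = 5) and RT1-Db1 by 0.52 (SE 0.19, adjusted p = 0.0477). That made 2 calls of 8, where 18.4% of genes were called and 8.75% were called higher. Neither call was firm. RT1-Da lost it without the array with zeros, which is CsA 25 mg/kg replicate 3 (0.60, adjusted p = 0.0659), without CsA 25 mg/kg replicate 4 (0.61, adjusted p = 0.0573) or CsA 2.5 mg/kg replicate 2 (0.59, adjusted p = 0.0536). RT1-Db1 lost it in the absence of any one of 8 of the 9 rats, CsA 2.5 mg/kg replicate 1 being the exception, at 0.45 to 0.57 and adjusted p of 0.0571 to 0.141. RT1-DMb differed by 0.48 (adjusted p = 0.0644) and was called without CsA 2.5 mg/kg replicate 1 (0.58, adjusted p = 0.0313) or CsA 25 mg/kg replicate 2 (0.56, adjusted p = 0.0479).

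Against Rapa 10 mg/kg, CsA 25 mg/kg gave 0 of 32 calls over the 4 days, with 5 unadjusted p under 0.05, 4 of them at day 28, where 19.9% of genes were called. RT1-DMb differed at day 28 by 0.45 (SE 0.18, adjusted p = 0.0660) and was called without CsA 25 mg/kg replicate 2 (0.54, adjusted p = 0.0493). At day 7, where 9.43% of genes were called, RT1-Ba was called when Rapa replicate 2 was left out (1.35, adjusted p = 0.0230). Vehicle rats at day 28 and day 1 gave 0 of 8 calls and no unadjusted p under 0.05, where 2.11% of genes were called.

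After 14 doses of Rapa 1 mg/kg, the RT1-D alpha chain was called lower than in vehicle rats, a call that depended on single rats. RT1-Da read 10.58, 11.15, 10.34 and 10.42 against 11.78, 11.13, 11.66 and 10.93 in vehicle rats, so that 3 of the 4 treated rats lay below every vehicle rat. It was lower by 0.75 (SE 0.22, limma adjusted p = 0.0172), 1 call of 8 members where 9.05% of genes were called and 4.97% were called lower. The vehicle mean of RT1-Da at day 14 (11.38) was itself the second highest of the 28 groups. Vehicle means at days 1, 7 and 28 were 11.10, 11.08 and 11.04. All 8 members had a negative change, with a median of -0.48 against 0.00 over all genes: RT1-Ba -0.89 (SE 0.38, adjusted p = 0.127), RT1-DMb -0.57 (SE 0.20, adjusted p = 0.0530), RT1-Db1 -0.54 (SE 0.20, adjusted p = 0.0817) and Cd74 -0.42 (SE 0.19, adjusted p = 0.150). The RT1-Da call was lost without vehicle replicate 1 (-0.62, adjusted p = 0.0854) or 3 (-0.66, adjusted p = 0.0767), or Rapa replicate 3 (-0.66, adjusted p = 0.0711) or 4 (-0.69, adjusted p = 0.0673). RT1-Db1 was called lower without replicate 2 of either group (vehicle -0.72, adjusted p = 0.0317; Rapa -0.69, adjusted p = 0.0353), and RT1-DMb without vehicle replicate 2 (-0.68, adjusted p = 0.0408) or Rapa replicate 3 (-0.68, adjusted p = 0.0359).

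The same rats had lower markers of immune cells and of the proximal tubule. Of 8 leukocyte genes 5 fell (median -0.54), among them the actin regulator Coro1a (-0.73, SE 0.25) and the phosphatase Ptprc (-0.70, SE 0.21). Of 14 macrophage genes 4 fell (median -0.62), Adgre1 and, with their values, Cd68 (-1.02, SE 0.23), Tyrobp (-0.60, SE 0.20) and Csf1r (-0.51, SE 0.14). The leukocyte list ran from 6.90 to 7.31 in Rapa rats and from 7.36 to 7.71 in vehicle rats. The macrophage list had medians of 7.65 and 8.23. At 10 mg/kg on the same day, where no member was called, the leukocyte list ran from 6.90 to 7.19 and the macrophage list had a median of 7.68. Of 9 interferon gamma targets 1 fell, the GTPase Irgm (-0.56, SE 0.19), with a median of -0.35, and that list ran from 7.19 to 7.64 in Rapa rats and from 7.42 to 7.83 in vehicle rats. Of 12 proximal tubule genes 3 fell, the transporters Slc5a12 (-0.94, SE 0.25) and Slc22a8 (-0.70, SE 0.17) and the enzyme Gatm (-0.56, SE 0.18), with a median of -0.24. The tubule list ran from 11.85 to 12.42 in Rapa rats and from 12.42 to 12.61 in vehicle rats. At 10 mg/kg on the same day the tubule list ran from 12.22 to 12.39 and the interferon gamma list from 7.23 to 7.63. Among class II regulators Irf8 fell (-0.67, SE 0.18), and of the loading proteases Lgmn (-0.49, SE 0.13) and Ctsb (-0.42, SE 0.07) fell while Ctsd rose (0.51, SE 0.14). The part of immune cells and of the tubule in the lower class II levels was not tested.

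The dip was seen on 1 day and at the lower dose. At 1 mg/kg no member was called on days 1, 7 and 28 (limma, 0 unadjusted p under 0.05), where 3.08%, 4.22% and 9.85% of genes were called. At 10 mg/kg and day 14, RT1-Da read 11.26 ± 0.22 (SD, n = 4) against 10.62 ± 0.37 (n = 4) at 1 mg/kg. The difference was 0.64 (SE 0.22), that of RT1-DMb 0.84 (SE 0.20) and that of RT1-Db1 0.78 (SE 0.20), and RT1-DMb and RT1-Db1 did not overlap between the doses. Of all genes, 1.58% were higher with no overlap. None of the members passed after adjustment (limma, adjusted p = 0.646, 0.165 and 0.248), in a comparison where 0% of all genes were called and 5 members had an unadjusted p under 0.05. A second probe set of RT1-Bb, which split the rats as described below, separated the same groups. It read 4.94 to 6.18 at 1 mg/kg and 9.96 to 10.73 at 10 mg/kg, so that dose and this split cannot be told apart here.

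The RT1-B genes varied most among rats of the same group. The SD within groups was 1.53 for RT1-Bb and 0.54 for RT1-Ba, above that of 97.9% of the 10663 genes, while the other members had 0.26 to 0.31 and the median gene 0.20. RT1-Bb levels fell into separate sets, with no rat between 6.89 and 7.65: 26 rats lay below (median 5.92) and 94 above (median 9.25). In 19 of the 28 groups both sets were present, vehicle groups included, and in the other 9 all rats lay above. The largest changes of RT1-Bb against vehicle, -2.88 for CsA 2.5 mg/kg at day 14 and -2.06 for Rapa 10 mg/kg at day 14, were not called (median SE 1.07 over 24 comparisons).

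A second probe set of RT1-Bb was split differently. It had no rat between 6.67 and 8.34, with 68 rats below and 52 above. The main probe set, which was used above, alone was high in 66 rats, the second alone in 24, both in 28 and neither in 2. Rats with both high read a median of 8.61 on the main probe set, against 9.47 where it alone was high. The second probe set of RT1-Db1 followed the second of RT1-Bb: 51 rats were high on both, 68 were low on both and 1 was high on the RT1-Bb probe set alone. Every drug and the vehicle held all 3 of the larger sets, with 11, 4 and 2 of the 17 vehicle rats in them. The main RT1-Db1 probe set had no such break, but its medians differed. They were 9.13, 9.36 and 9.48 in the rats high on the main RT1-Bb probe set alone, on both and on the second alone. Its SD within groups was 0.29. On the second RT1-Bb probe set, the day 28 rats read 4.32, 10.57, 9.66, 4.72 and 11.07 with FK506 6 mg/kg. With vehicle they read 5.23, 6.05, 9.87, 5.24 and 5.74. The part of the sets in the RT1-Db1 call of that day was not tested. These sets were drawn from the levels themselves and are given without a test; the part of sequence differences between rats was not tested.

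**Figure D4:**
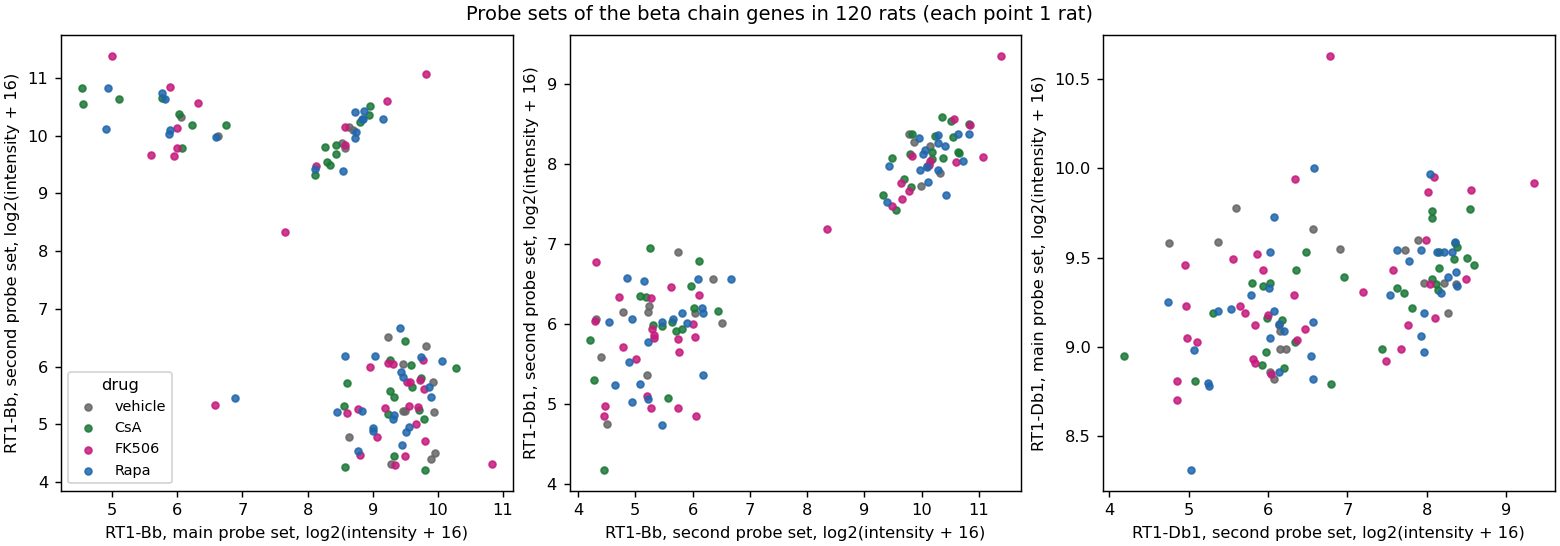
Levels of 3 pairs of probe sets of RT1-Bb and RT1-Db1, log2(intensity + 16), each point 1 of 120 rats coloured by drug. In the left panel 66 rats are high on the main probe set alone, 24 on the second alone and 28 on both; in the middle panel the second probe sets of RT1-Bb and RT1-Db1 split the rats alike, and in the right panel the main RT1-Db1 probe set shows no break.

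The choice of RT1-Bb probe set turned the sign of its change with FK506. From its main probe set, RT1-Bb read 10.83, 6.32, 5.59, 9.80 and 9.81 in the FK506 6 mg/kg rats of day 28, a change of -0.90 (SE 0.95) against vehicle. With the intensities of both probe sets summed, an alternative added after these values were seen, the SD within groups was 0.69 and the change was 0.73 (SE 0.43, adjusted p = 0.260; 10.51 ± 0.76 against 9.78 ± 0.36). Neither was called, and the sum weights the probe sets by their brightness. No probe set of RT1-Bb was called in any of the 24 comparisons with vehicle, nor was the sum. On the linear scale the second probe set of RT1-Bb had the higher mean (526.1 against 484.2), and so had another of RT1-Ba (845.8 against 838.7), so that the rule for choosing a probe set depended on the scale for these genes. That probe set of RT1-Ba was not called against vehicle either (changes of -2.55 to 0.72).

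Among rats given the same treatment, the class II genes varied together. Deviations from the group mean were correlated over 120 rats for 21 pairs of 7 members, RT1-Bb being left out because its rats fell into separate sets. RT1-Db1 was kept, though its medians differed between the sets described above, and the part of the sets in these relations was not tested. All 21 coefficients were positive, from 0.11 to 0.78, and 16 passed by Pearson's r after adjustment over the 21 pairs. RT1-Da and Cd74 had the highest (Pearson's r 0.78, Spearman's rho 0.77; permutation within groups, adjusted p = 3e-05 and 2.6e-05, the smallest p that 100000 resamples can give before adjustment being 1e-05). RT1-Da and RT1-Db1, the chains of RT1-D, followed (r 0.73, rho 0.69, adjusted p = 3e-05 and 2.6e-05), and r was 0.76 and 0.69 for these pairs without the 2 rats farthest from the median of RT1-Da.

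The DM chains correlated at r 0.63 (rho 0.56, adjusted p = 3e-05 and 2.6e-05; r 0.57 without 2 rats), and RT1-Db1 with RT1-DMb at 0.63 (rho 0.61; r 0.62 without 2 rats). RT1-DMb correlated less with RT1-Da (r 0.29, rho 0.24, adjusted p = 0.012 and 0.040). Ciita had r from 0.11 with RT1-DMb to 0.32 with RT1-Da (rho 0.23, adjusted p = 0.0073 and 0.042; r 0.25 without 2 rats). All levels of a rat come from 1 array and share its RNA quality and hybridization, whose part in these relations was not tested.

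Leukocyte genes varied with the class II genes over the same rats. Of 35 relations between 7 members and 5 marker lists, 14 passed by Pearson's r after adjustment, all positive. RT1-Da followed the pan-leukocyte list (r 0.53, rho 0.51, adjusted p = 8.7e-05 and 0.00017; r 0.48 without the 2 farthest rats) and the macrophage list (r 0.49, rho 0.48, adjusted p = 0.00014 and 0.00017; r 0.51). Cd74 followed the pan-leukocyte list at r 0.43 (rho 0.40, adjusted p = 0.00050 and 0.00085; r 0.38) and the dendritic-cell list at 0.40 (rho 0.37, adjusted p = 0.00083 and 0.0014; r 0.35). RT1-DMb did not pass with the pan-leukocyte list (r 0.15, rho 0.08, adjusted p = 0.25 and 0.51), nor did Ciita (r 0.21, rho 0.23, adjusted p = 0.080 and 0.056). No member passed by Pearson's r with the B-cell list (Cd74 r 0.18, rho 0.26, adjusted p = 0.25 and 0.032), of which 4 of 10 genes with a probe set were bright enough to test. With the T and NK list (5 of 17), RT1-Db1 (r 0.37, rho 0.40, adjusted p = 0.0016 and 0.00077) and RT1-Da (r 0.25, rho 0.27, adjusted p = 0.027 each) passed. By rho alone, RT1-DMb (r 0.21, rho 0.26, adjusted p = 0.088 and 0.032) and Cd74 (r 0.23, rho 0.25, adjusted p = 0.058 and 0.032) passed with it.

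**Figure D5:**
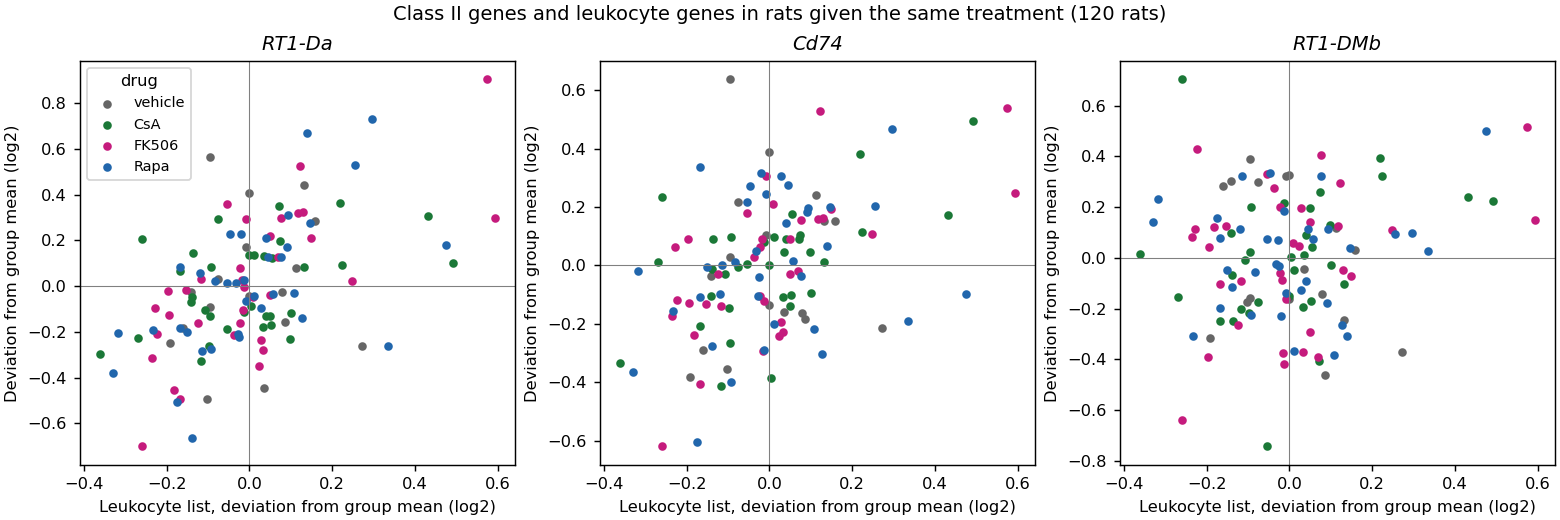
Deviation of RT1-Da, Cd74 and RT1-DMb from the mean of their group (vertical, log2) against that of the mean of 8 pan-leukocyte genes (horizontal, log2), each point 1 of 120 rats. The points climb for RT1-Da (r 0.53) and Cd74 (r 0.43) and scatter for RT1-DMb (r 0.15).

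Genes outside the family with the most similar pattern were found by Pearson's correlation of the 28 group means, over all other genes tested and as a description only. For RT1-Da these were Strn4 (0.70), the macrophage lysozyme Lyz2 (0.69), Tle4 (0.67), Irf1 (0.66) and Kars1 (0.65), and for RT1-Db1 Tle4 (0.73), Bgn (0.66), Arf6 (0.63), Lyz2 (0.62) and Irf1 (0.62). Over the deviations of single rats Lyz2 kept 0.49 with RT1-Da and 0.47 with RT1-Db1, while Strn4 had 0.13. For Cd74 they were Litaf and Tsc22d1 (0.69 each), Lsr (0.68), Tapbp and Slc17a1 (0.67 each), with -0.23 to 0.09 over single rats. RT1-Ba was nearest to LOC100911253 and the macrophage gene Aif1 (0.64 each; Aif1 0.59 over single rats). RT1-DMb was nearest to Ddx39a, Pop7 and Jak2 (0.74 each), RT1-DMa to Plekhm2 (0.78) and Ciita to Pgm3 (0.63).

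For RT1-Bb the nearest genes were RT1-CE12 (0.89), Pfdn6 (0.84), RT1-N2 (0.79), RT1-A (0.73) and RT1-T24-4 (0.66), and the relation held over single rats (0.71 to 0.84). RT1-CE12, RT1-N2, RT1-A and RT1-T24-4 are named as class I genes of the same complex. RT1-CE12, Pfdn6, RT1-N2 and RT1-T24-4 lie on chromosome 20 with RT1-Bb in the RefSeq tables. In the rats high on the main RT1-Bb probe set alone RT1-CE12 had a median of 11.32, in those high on both 10.72, and in those high on the second alone 9.21. RT1-N2 read 7.75, 6.89 and 4.69 in the same sets. These genes were picked by their correlation with RT1-Bb, and the sets were cut from RT1-Bb levels. Steps between the sets thus follow from the choice and are no separate evidence.

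The mean of all 8 members, in which RT1-Bb weighs most because its group means vary most (SD of the 28 group means 0.68, against 0.12 to 0.32), was nearest to LOC100911253 (0.69), Scrn1 (0.68), Tnfrsf14 and Utp23 (0.64 each), Lyz2 (0.63), Cdhr5 (0.62), Arhgdib (0.60), and Il18bp, Irf1 and Col6a6 (0.59 each).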

How the data were processed

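Total RNA of kidney from 120 rats was measured on Affymetrix Rat 230 2.0 arrays after one-cycle biotin labelling, per the labels. The authors deposited intensities on a linear scale, 1 value per probe set; how they summarized and scaled the probes is not given in the sources used here. Replicates are separate rats. An offset of 16 was added, log2 taken and the arrays quantile normalized. Probe sets were paired with genes by the platform annotation (20826 with 1 gene, 436 with several, 9780 with none). For each gene the probe set with the highest mean log2 level was kept, and the lowest 25% of genes were left out (10663 tested). Group means were estimated together from the 120 arrays in limma 3.58.1 (R 4.3.3; 92 residual degrees of freedom, two-sided, Benjamini-Hochberg over the genes of each of 55 comparisons, called at an adjusted p under 0.05). Correlations used 100000 permutations within groups (numpy 2.4.6). The fit was tested on simulated data with known changes. Precision is set by how many rats a group holds. No column of other series was present (0).

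The members and lists were chosen with earlier results of these data known. All members are named; from each list up to 4 called genes with the largest change were named per comparison. The 5 genes nearest each member and the 10 nearest the mean of the members, by correlation of 28 group means, were computed, and named as far as the text needs them. Igtp, Rfx5, Rfxap and the comparison of RT1-Bb probe sets were singled out after their values were seen. Alternatives were other normalization, offset, filter, probe set handling, spread estimate, covariates and left-out arrays; the sum of both RT1-Bb probe sets and the gene list counts without the array with zeros or with the hybridization covariate were chosen after seeing the data.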

Additional observations from a re-analysis of the deposited data

Results flagged for a closer look

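Single rats stood apart from the others of their group, by a gap test at the 95% level, in 20 of 216 tests of a member in a group. Chance flags about 1 in 20 groups. None of these values was left out of the report. Replicate 4 of Rapa 1 mg/kg at day 1 was lowest for 4 members: RT1-Da 10.51 (others 11.14 to 11.22), RT1-Ba 8.85 (10.16 to 10.29), RT1-Bb 6.60 (8.72 to 8.87) and Cd74 11.41 (12.17 to 12.29). For RT1-Da, vehicle replicate 5 at day 28 was highest at 11.60, CsA 25 mg/kg replicate 1 at day 28 lowest at 11.07 and CsA 2.5 mg/kg replicate 2 at day 14 highest at 11.48. For RT1-Ba, CsA 2.5 mg/kg replicate 1 (9.44) and CsA 25 mg/kg replicate 4 (8.97) were lowest at day 14.

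RT1-Bb had the lowest rat apart in 3 more groups: CsA 2.5 mg/kg replicate 2 at day 1 (6.07), CsA 2.5 mg/kg replicate 2 at day 7 (5.77) and Rapa 10 mg/kg replicate 6 at day 28 (4.91). All of these belong to the low set of RT1-Bb rats. For RT1-Db1, vehicle replicate 4 at day 7 was lowest (8.99), Rapa 10 mg/kg replicate 2 at day 14 highest (9.97) and CsA 2.5 mg/kg replicate 1 at day 28 highest (9.58). For RT1-DMb, Rapa 10 mg/kg replicate 1 at day 14 (9.19) and FK506 0.6 mg/kg replicate 5 at day 28 (9.10) were lowest. For Ciita, vehicle replicate 1 at day 1 (6.87), FK506 6 mg/kg replicate 1 at day 7 (6.89) and Rapa 1 mg/kg replicate 2 at day 14 (6.58) were highest.

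The effect of FK506 6 mg/kg on RT1-Db1 differed between day 28 and day 7 by 1.06 (SE 0.27, limma adjusted p = 0.0141), by a test of that difference.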

How the results depend on the processing

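Calls of members were recounted under 11 alternatives and with single rats left out (98 refits; groups of 6 and 1 group of 4 were not left out). No called change turned its sign, and the sum of the RT1-Bb probe sets, chosen after seeing the data, left every count as it was; of the values per gene and comparison, 30 lost a call, 23 gained one and 8411 kept theirs. For the higher against the lower dose the 3 calls became 0 when only arrays of the compared days were fitted, 1 without the array with zeros and 1 without the 4 arrays with Alb above 12. For Rapa against vehicle the 1 call became 2 with an intensity trend in the spread. With single rats left out, calls ran from 2 to 4 (3 in the full fit) for FK506 against vehicle, 0 to 3 for Rapa against vehicle, 3 to 6 (4) for FK506 6 against Rapa 10 mg/kg, 1 to 5 for the doses, 1 to 3 (1) for day 28 against day 7, 0 to 1 (0) for CsA 25 mg/kg against FK506 6 mg/kg and 0 to 1 (0) against Rapa 10 mg/kg, and stayed at 0 for CsA against vehicle and for vehicle over time. No paired analysis was possible because each rat gave 1 kidney sample and the labels carry rat numbers, with no number shared between groups. Signal limits Ciita and most B- and T-cell markers, which lie near or below the dim limit.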
